A study of Mus musculus with 26 samples.

Results

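The genes described here are 42 mouse genes of DNA replication and mitosis, followed through the joint after surgery. They were listed by name and by role. Each gene was read from the brightest Affymetrix probe set annotated to its symbol alone. A probe set of this kind was found for 41 of the 42 genes, out of 11488 genes with a tested probe set of their own, and all 41 lay above the brightness filter of 7.93 on the log2 scale, which kept 22482 of 45101 probe sets. Ccnb1 had no probe set annotated to it alone and has no value here.

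The samples were male C57BL/6 mice that were operated on at 12 weeks of age. Destabilization of the medial meniscus (DMM) is an operation that cuts the ligament holding the medial meniscus to the tibia, after which osteoarthritis develops. The sham groups had the control operation, and the time 0 group was taken at 12 weeks of age with no operation. Joints were taken at 2, 4, 8 and 16 weeks, when the mice were 14, 16, 20 and 28 weeks old. RNA came from the whole medial joint compartment, which held cartilage, subchondral bone with any osteophytes, meniscus, joint capsule and synovium, so that no single cell type was isolated. Each array held RNA pooled from 3 mice, with 3 pools in each of the 9 groups except DMM at 2 weeks, which had 2. No mouse carried an engineered allele.

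Replication and mitosis genes are switched on in waves. Cyclin E and E2F factors open S phase, the MCM ring unwinds DNA with Cdc45 and the GINS complex, and Cdk1 with B cyclins then drives the cell into mitosis, where Aurora and Polo kinases, the checkpoint and spindle motors part the chromosomes. In an adult joint most chondrocytes and bone cells divide rarely, whereas the marrow within subchondral bone holds erythroid and myeloid precursors that divide all the time. Many promoters of mitosis genes carry a CCAAT box and a cell cycle homology region, bound by NF-Y and by the DREAM and MuvB complexes, and many promoters of replication genes carry E2F sites.

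RefSeq promoters (assembly GRCm38.p6, 250 bases before to 50 bases after the start) were at hand for 33 of the 42 genes, and not for Ccne2, Mcm4, Gins1, Gins2, Ccna2, Foxm1, Aurkb, Kif20a and Tpx2. The cell cycle homology region was searched as TTTGAA or TTTAAA, the CCAAT box as CCAAT, and the E2F site as TTCCCGC, as TTGGCGC or as TTCGCGC, all on both strands. E2F matches on opposite strands may overlap one another, as they do in Mcm5 and Mcm6. A homology region was found in 84.2% of the 19 promoters of mitosis genes and 42.9% of the 14 promoters of replication genes, against 27.6% of all 32851 promoters. A CCAAT box was found in 84.2%, 64.3% and 37.4% of them, and an E2F match in 15.8%, 42.9% and 8.07%. For each listed gene only the first promoter given was searched, while the 32851 hold every promoter and may count a gene more than once. The promoters of mitosis genes include that of Ccnb1, which has no signal here. A match is a description of the letters and not a measured site. Promoters of 3 mitosis genes and 2 replication genes that passed the test at 4 weeks are printed as the 200 bases before the start, 5′ to 3′, with matches to any of these motifs in capitals.
Cdk1, chr10:69352913-69353112, minus strand: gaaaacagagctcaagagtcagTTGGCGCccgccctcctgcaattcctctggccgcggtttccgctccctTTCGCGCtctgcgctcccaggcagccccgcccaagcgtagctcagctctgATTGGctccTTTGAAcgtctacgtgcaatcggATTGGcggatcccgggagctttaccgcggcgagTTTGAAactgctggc
Mki67, chr7:135716380-135716579, minus strand: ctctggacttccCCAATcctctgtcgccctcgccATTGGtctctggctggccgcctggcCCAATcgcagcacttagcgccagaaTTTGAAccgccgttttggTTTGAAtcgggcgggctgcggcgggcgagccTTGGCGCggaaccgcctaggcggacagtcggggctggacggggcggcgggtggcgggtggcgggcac
Cdc20, chr4:118437344-118437543, minus strand: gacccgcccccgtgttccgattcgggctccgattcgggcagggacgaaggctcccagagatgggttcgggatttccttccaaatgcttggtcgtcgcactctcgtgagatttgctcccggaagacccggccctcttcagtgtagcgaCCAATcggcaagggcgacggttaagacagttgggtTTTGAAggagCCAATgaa
Mcm5, chr8:75109309-75109508, plus strand: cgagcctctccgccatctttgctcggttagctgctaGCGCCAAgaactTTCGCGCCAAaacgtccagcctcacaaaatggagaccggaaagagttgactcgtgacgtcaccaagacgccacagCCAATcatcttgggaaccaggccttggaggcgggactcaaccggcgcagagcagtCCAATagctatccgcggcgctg
Mcm6, chr1:128359706-128359905, minus strand: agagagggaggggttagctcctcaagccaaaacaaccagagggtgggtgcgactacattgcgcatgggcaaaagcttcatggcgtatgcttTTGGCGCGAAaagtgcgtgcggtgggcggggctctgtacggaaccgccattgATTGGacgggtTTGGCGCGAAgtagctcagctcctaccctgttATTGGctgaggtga
In these 200 bases all 5 promoters held CCAAT boxes. The homology region TTTGAA was in those of Cdk1, Mki67 and Cdc20, and E2F matches were in those of Mcm5 and Mcm6 and also of Cdk1 and Mki67. Mcm5 held a homology region match, TTTAAA, further upstream and outside the printed bases.

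The 41 genes moved through the time course almost as 1 block. The mean log2 signal over the 41 genes was 10.95 ± 0.14 (SD, n = 3 pools) at time 0, 10.61 ± 0.29 (n = 3) in sham and 10.29 ± 0.04 (n = 2) in DMM joints at 2 weeks, and 11.003 ± 0.07 (n = 3) in sham and 10.66 ± 0.16 (n = 3) in DMM joints at 4 weeks. At 8 weeks it was 10.98 ± 0.07 in sham and 11.06 ± 0.06 in DMM joints, and at 16 weeks 11.14 ± 0.08 and 11.06 ± 0.11 (each n = 3). By group mean DMM at 2 weeks was lowest, followed by sham at 2 weeks, DMM at 4 weeks and then the other 6 groups. Pools of neighbours in this order overlapped throughout, DMM and sham at 2 weeks included, while both DMM pools at 2 weeks lay below every pool of the other 7 groups. DMM at 2 weeks had the lowest group mean for 39 of 41 genes, and sham at 16 weeks had the highest for 33 of 41. Each gene was correlated with the mean of the other 40 over the 26 pools, with r between 0.509 (Foxm1) and 0.993 (Mcm6) and a median of 0.97. Foxm1 lay just above the brightness filter, and its signal ranged over only 0.50 between pools. All of these correlations share the same arrays and are given as a description.

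**Figure D1:**
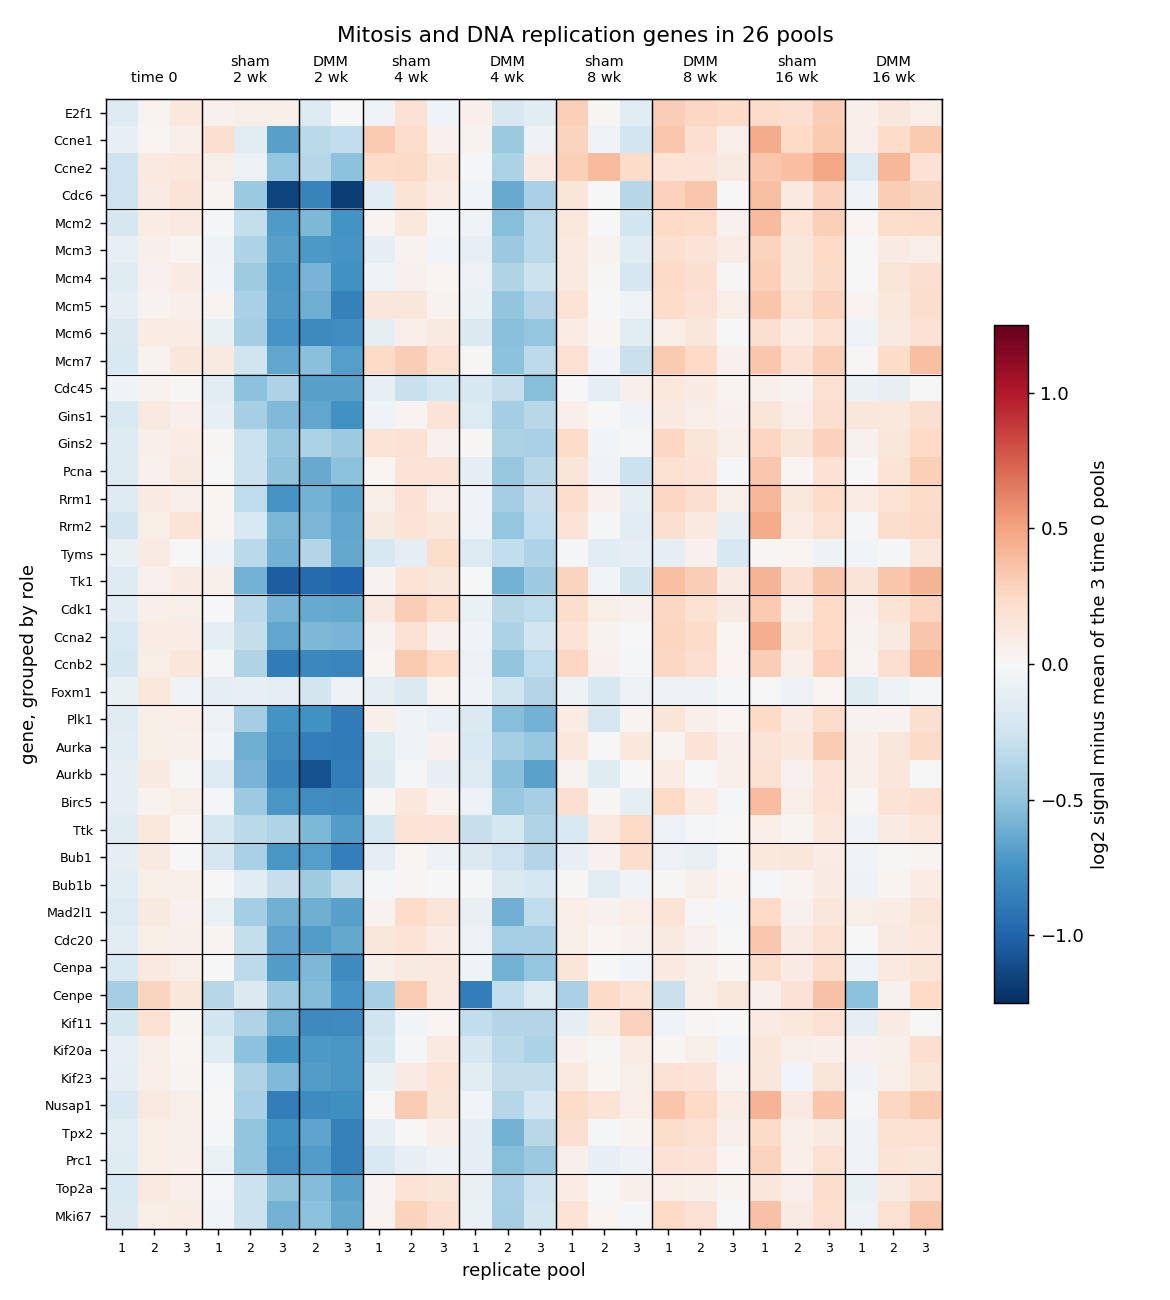
Log2 signal of 41 mitosis and DNA replication genes (each gene a row, grouped by role) in 26 pools (columns, by group and replicate number), as the difference from the mean of the 3 time 0 pools. Both DMM pools at 2 weeks and sham pool 3 at 2 weeks are low for nearly every gene, DMM pools 2 and 3 at 4 weeks less so, and E2f1 and Foxm1 vary least.

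Single pools stood apart in their marker signals. Sham pool 3 at 8 weeks had the highest signal of all 26 pools for Mpo, a marker of granulocyte precursors, at 14.51. It also had the lowest mean of 8 B cell precursor markers, at 8.82. Sham pool 3 at 2 weeks had the lowest signal of all 26 pools for Alas2, the heme synthesis enzyme of erythroid cells, at 11.14, and the lowest mean of 10 skeletal muscle markers, at 9.65. Counts of called genes and median ratios of the main fit that rest on this sham pool at 2 weeks are given with and without it. Correlations of deviations from group means include it and were not repeated without it. All 9 chondrocyte, 5 osteoblast, 9 erythroid, 5 granulocyte precursor and 10 muscle markers with a probe set of their own lay above the brightness filter, so RNA of cartilage, bone, marrow and adjoining muscle was present. Pools of 1 group correlated over all probe sets at r from 0.977 to 0.996, and array medians lay between 7.898 and 7.948.

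At 2 weeks after DMM most of the genes were below the unoperated joint. Against time 0, 36 of 41 genes fell (limma, adjusted p under 0.05, Benjamini-Hochberg over all 22482 probe sets), where 15.2% of all tested probe sets fell. The median log2 ratio of the 41 genes was -0.67, beside -0.03 over all tested probe sets. The pools did not overlap for 39 of 41 genes, with DMM below time 0, where 31% of all tested probe sets were apart in that direction. Leaving out 1 pool at a time gave between 29 and 38 genes that fell.

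The G1/S regulators held the gene with the lowest ratio and the gene with the ratio nearest 0. Cdc6, which loads the MCM helicase onto origins, stood at 10.44, 10.80 and 10.86 in the time 0 pools, at 10.74, 10.23 and 9.56 in the sham pools and at 9.87 and 9.53 in the DMM pools at 2 weeks. Both DMM pools lay below every time 0 pool, and the sham pools spanned the space between. The log2 ratio of Cdc6 in DMM against time 0 was -1.01 ± 0.24 (SE, adjusted p = 0.00394, limma), a 2.01-fold lower signal. E2f1, the transcription factor that opens S phase, had a ratio of -0.09 ± 0.11 (adjusted p = 0.581) and Ccne1, cyclin E1, of -0.32 ± 0.19 (adjusted p = 0.211). Ccne2, the brightest of this class, stood at 10.54, 10.92 and 10.92 at time 0 and at 10.44 and 10.29 in DMM at 2 weeks, with an adjusted p of 0.0508. All 3 missed the threshold, as did Foxm1 and Cenpe.

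All 6 MCM helicase genes, all 4 replication fork genes and all 4 nucleotide supply genes fell in this comparison. Mcm7, the brightest MCM subunit, stood at 12.72, 12.96 and 13.06 at time 0, at 13.03, 12.66 and 12.26 in sham and at 12.39 and 12.22 in DMM pools at 2 weeks. Pcna, the sliding clamp of DNA polymerase, stood at 13.29, 13.52 and 13.58 at time 0, at 13.46, 13.19 and 12.96 in sham and at 12.83 and 12.95 in DMM. Both genes were apart from time 0 in DMM, and the sham pools bridged the gap, with pool 3 lowest. Rrm2, the regulated subunit of ribonucleotide reductase, stood at 13.03, 13.35 and 13.44 at time 0, at 13.29, 13.08 and 12.70 in sham and at 12.70 and 12.62 in DMM. The fall of Tk1, the thymidine kinase of S phase, was the largest among the nucleotide supply genes, at -0.97 ± 0.21 (adjusted p = 0.00193).

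Among the mitosis genes, 21 of 23 fell. All 5 genes of the mitotic kinases and the passenger complex, all 4 of the spindle checkpoint and all 6 spindle motors and microtubule binders were among them. Aurkb, the kinase of the chromosomal passenger complex, stood at 9.87, 10.11 and 10.01 at time 0 and at 8.91 and 9.13 in DMM pools, a ratio of -0.98 ± 0.14 (adjusted p = 6.59e-05). Birc5, survivin of the same complex, was the brightest of its class and stood at 11.82, 11.98 and 12.01 at time 0, at 11.92, 11.48 and 11.21 in sham and at 11.17 and 11.15 in DMM. Ccna2, cyclin A2, stood at 12.12, 12.40 and 12.40 at time 0, at 12.19, 12.01 and 11.65 in sham and at 11.74 and 11.73 in DMM. The DMM pools lay below all time 0 pools in each of these genes, while sham pool 1 lay within the range of the time 0 pools for Birc5 and Ccna2. Nusap1, a microtubule binder of the spindle, stood at 11.42, 11.74 and 11.69 at time 0, at 11.63, 11.21 and 10.75 in sham and at 10.84 and 10.86 in DMM. Mki67, the coat protein of mitotic chromosomes used as a proliferation marker, stood at 13.22, 13.49 and 13.50 at time 0, at 13.36, 13.14 and 12.81 in sham and at 12.88 and 12.76 in DMM, a ratio of -0.58 ± 0.14 against time 0 (adjusted p = 0.00471).

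A few of the genes were also lower after sham surgery at 2 weeks. Against time 0, 4 of 41 genes fell, Aurkb, Kif20a, Bub1 and Cdc45, where 0.405% of all tested probe sets fell. The median ratio was -0.35, beside 0.00 over all tested probe sets, and 40 of 41 ratios were below 0. The pools were apart, with sham lower, for 7 of 41 genes, beside 6.91% of all tested probe sets.

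Aurkb stood at 9.83, 9.41 and 9.18 in the sham pools, a ratio of -0.52 ± 0.13 to time 0 (adjusted p = 0.0418). Kif20a, a motor of cytokinesis, stood at 9.32, 9.49 and 9.44 at time 0 and at 9.27, 8.91 and 8.68 in sham, a ratio of -0.47 ± 0.11 (adjusted p = 0.0326). Both were apart by the narrow gap between time 0 pool 1 and sham pool 1. Bub1, a spindle checkpoint kinase, stood at 10.49, 10.71 and 10.59 at time 0 and at 10.38, 10.20 and 9.87 in sham, a ratio of -0.45 ± 0.10 (adjusted p = 0.0305). Cdc45, which joins the MCM ring in the active helicase, stood at 9.17, 9.28 and 9.25 at time 0 and at 9.10, 8.72 and 8.85 in sham, a ratio of -0.34 ± 0.09 (adjusted p = 0.048). In all 4 genes sham pool 1 was the highest sham pool. The median ratio of the 41 genes was -0.50 without sham pool 1 and -0.20 without sham pool 3. The count was 32 without sham pool 1, 6 without time 0 pool 1, and 0 without sham pool 2, sham pool 3, time 0 pool 2 or time 0 pool 3.

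DMM against sham at 2 weeks shares these sham pools. Signals of all 41 genes were lower in DMM, with a median ratio of -0.33 beside -0.03 over all tested probe sets, but limma called 0 of 41, with 26 at an unadjusted p under 0.05 and a lowest adjusted p of 0.0643 (Kif23). Of all tested probe sets 2.43% were called. Among 33 further probe sets of these genes above the filter, a second one of Cenpe passed, at -0.38 (adjusted p = 0.0478, limma). It had r = 0.63 with the Cenpe probe set used here. DMM lay below sham without overlap for 19 of 41 genes, beside 14.1% of all tested probe sets. Without sham pool 3 the count of genes that fell was 27 and the median -0.48. Without sham pool 2 the count was 1, and without sham pool 1 it was 0 and the median -0.17. The time 0 pools and the sham pools each enter 2 of these 3 comparisons, so they are not independent of one another.

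**Figure D2:**
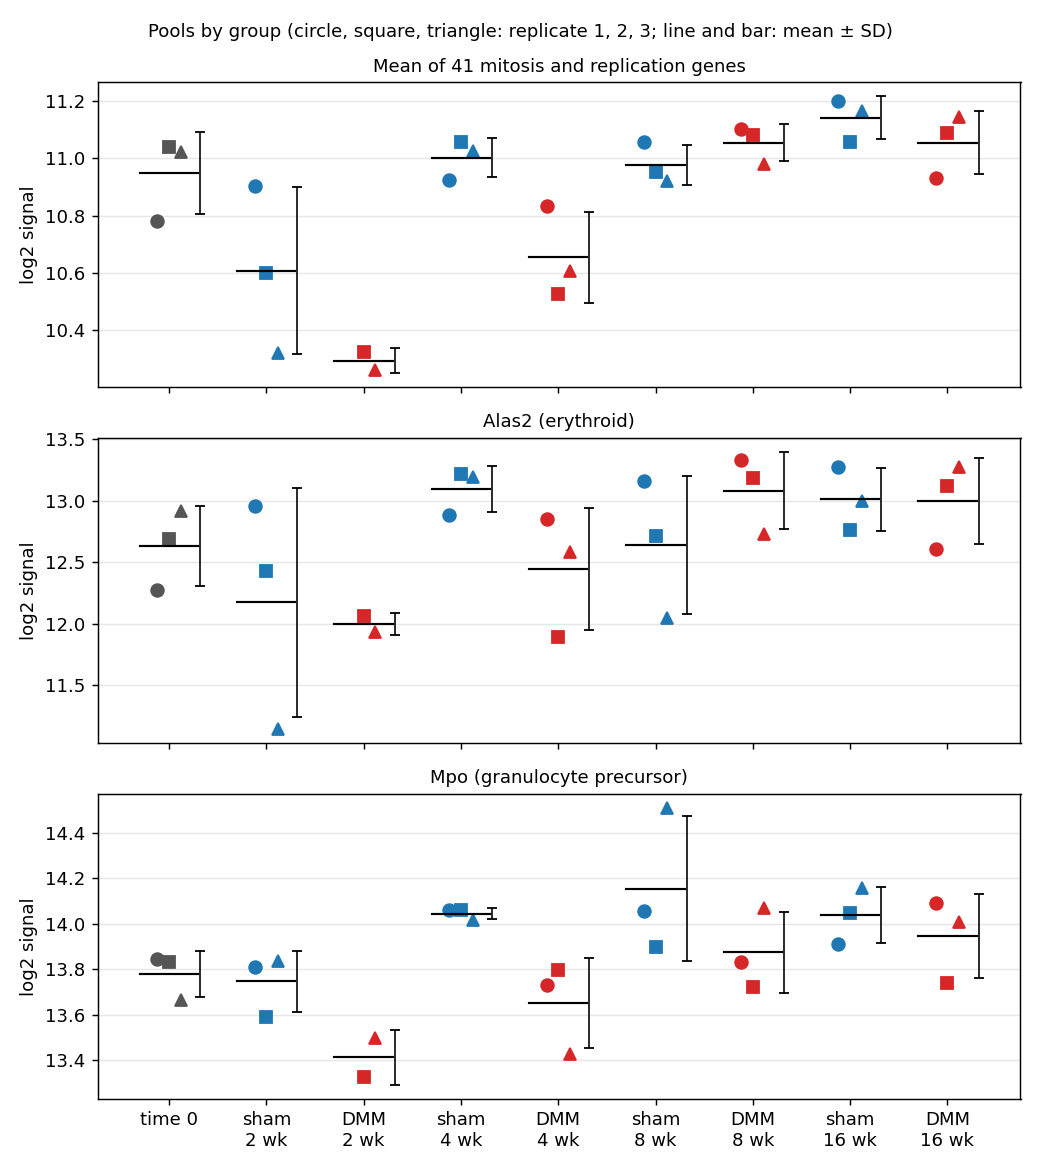
Log2 signal in each pool (circle, square and triangle for replicates 1, 2 and 3, with the group mean and SD) of the mean of 41 genes, of Alas2 and of Mpo, by group. The sham pools at 2 weeks spread from 10.32 to 10.90 in the gene mean and from 11.14 to 12.95 in Alas2, in the same order, while Mpo of the same pools stays between 13.59 and 13.84.

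At 4 weeks the genes were lower in DMM than in sham joints. Of 41 genes 17 fell, where 6.68% of all tested probe sets fell, and no gene rose. The median ratio was -0.36, beside -0.01 over all tested probe sets, all 41 ratios were below 0 and 33 had an unadjusted p under 0.05. DMM lay below sham without overlap for 30 of 41 genes, beside 17% of all tested probe sets. The share that fell was 7 of 18 replication genes and 10 of 23 mitosis genes, with median ratios of -0.36 and -0.35.

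Mcm7 had the lowest ratio. It stood at 13.16, 13.22 and 13.10 in the sham pools and at 12.92, 12.40 and 12.59 in the DMM pools, a ratio of -0.53 ± 0.16 (adjusted p = 0.0269), or 1.44-fold lower. Ccnb2, a cyclin B that partners Cdk1, stood at 12.01, 12.32 and 12.24 in sham and at 11.92, 11.50 and 11.67 in DMM, a ratio of -0.49 ± 0.16 (adjusted p = 0.0369). Sham and DMM were apart in both genes, and DMM pool 1 came close to the lowest sham pool in Ccnb2. Mad2l1, the checkpoint protein that holds back Cdc20, stood at 11.25, 11.44 and 11.35 in sham and at 11.11, 10.61 and 10.89 in DMM, a ratio of -0.48 ± 0.12 (adjusted p = 0.00799). Cenpa, the histone H3 variant of centromeres and the brighter centromere gene, stood at 11.62, 11.68 and 11.68 in sham and at 11.50, 10.97 and 11.08 in DMM, a ratio of -0.48 ± 0.14 (adjusted p = 0.0206). DMM pool 1 was the highest DMM pool in all 4 genes, and no DMM pool reached a sham pool.

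Cdk1, the kinase that drives entry into mitosis, had a ratio of -0.47 ± 0.11 and the lowest adjusted p of the 41 genes, 0.00719. Cdc20, the activator of the anaphase-promoting complex, stood at 12.03, 12.05 and 11.97 in sham and at 11.81, 11.47 and 11.47 in DMM. The other genes that fell were Pcna, Mcm5, Mcm6, Gins1 and Gins2 of the fork and helicase, Rrm2, the kinases Plk1 and Ttk, the motor Kif23, and Top2a and Mki67 of the chromosomes. Ratios nearest 0 were those of E2f1 at -0.11, Foxm1 at -0.13, Cdc45 and Bub1b both at -0.14, none of which passed the test. Of the 4 G1/S regulators none was called, with 2 at an unadjusted p under 0.05 (limma).

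The brightest genes of the other classes mostly had the same pools low. Pcna stood at 13.49, 13.62 and 13.62 in sham and at 13.34, 12.98 and 13.11 in DMM, a ratio of -0.43 ± 0.13 (adjusted p = 0.0246). Rrm2 stood at 13.38, 13.44 and 13.40 in sham and at 13.23, 12.79 and 12.96 in DMM, a ratio of -0.41 ± 0.14 (adjusted p = 0.0488). Mki67 stood at 13.44, 13.68 and 13.60 in sham and at 13.31, 12.99 and 13.17 in DMM, a ratio of -0.41 ± 0.13 (adjusted p = 0.0291). In all 3 genes DMM pool 1 was the highest and DMM pool 2 the lowest of the DMM pools, and the groups did not overlap. Ccna2 stood at 12.35, 12.48 and 12.36 in sham and at 12.26, 11.91 and 12.06 in DMM, and Birc5 at 11.95, 12.07 and 11.98 in sham and 11.86, 11.46 and 11.52 in DMM. Nusap1 stood at 11.62, 11.94 and 11.77 in sham and at 11.58, 11.26 and 11.40 in DMM. Ccne2 stood at 11.03, 11.03 and 10.93 in sham and at 10.78, 10.40 and 10.89 in DMM. These 4 genes were also apart between the groups, and none passed the test (adjusted p = 0.0758 for Ccna2, 0.053 for Birc5, 0.109 for Nusap1 and 0.143 for Ccne2).

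Which pool was left out changed the count at 4 weeks. It was 1 without DMM pool 2, 2 without DMM pool 3 or sham pool 2, 8 without sham pool 3, 13 without sham pool 1 and 28 without DMM pool 1, with the median ratio between -0.46 and -0.29. A fit of the 2 groups alone called 4. Of 33 further probe sets of these genes above the filter, 32 had a ratio below 0 at 4 weeks and 8 were called. The exception was a second probe set of Kif11, at 0.02. All 8 that were called fell, where 6.68% of all tested probe sets fell and the median ratio over all of them was -0.01. The 33 are further readings of the same genes on the same arrays, so their counts are not separate results. Over the 26 pools the 33 had r from 0.176 (Cdc45) to 0.984 with the probe set used for the same gene, with a median of 0.914.

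**Figure D3:**
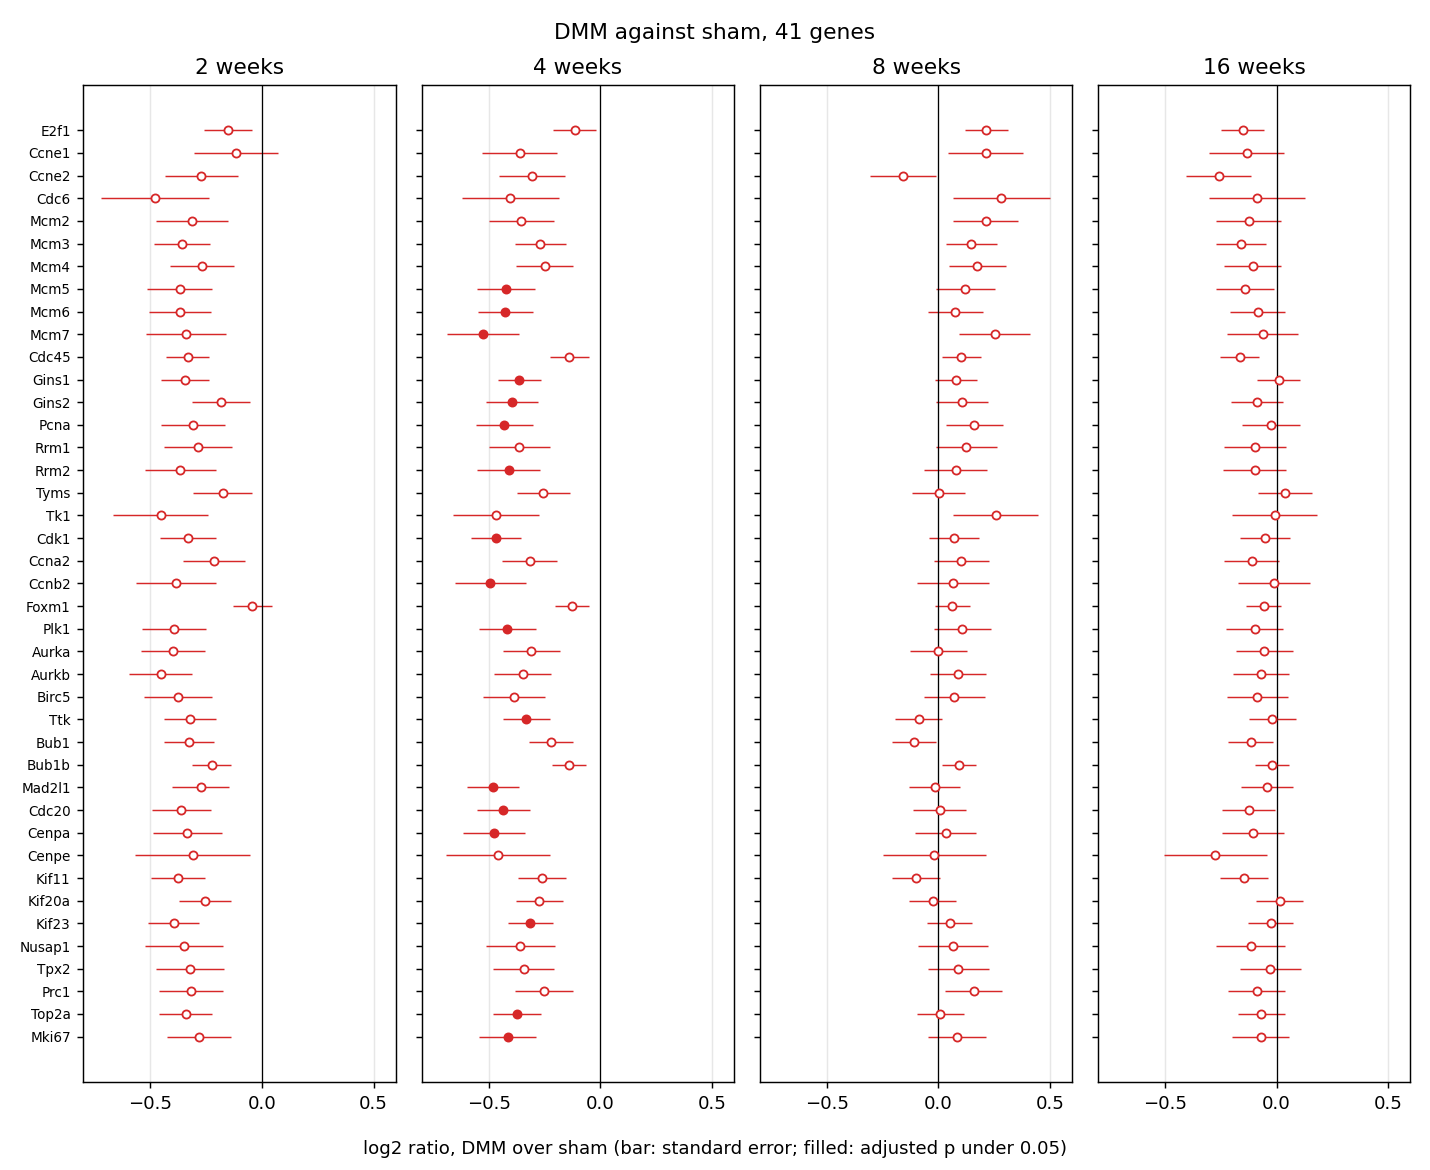
Log2 ratio of DMM over sham with its standard error (x axis) for 41 genes (y axis, by role) at 2, 4, 8 and 16 weeks, filled where the adjusted p was under 0.05. All 41 points lie left of 0 at 2 and 4 weeks, 17 are filled at 4 weeks and none elsewhere, and the points lie around 0 at 8 and 16 weeks.

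Against time 0, DMM joints at 4 weeks had 4 genes that fell, Cdc45, Gins1, Plk1 and Aurkb, where 1.77% of all tested probe sets fell. The median ratio was -0.30. The count was 17 without DMM pool 1, 8 without time 0 pool 1 and 0 without any 1 of the other 4 pools. For sham joints at 4 weeks against time 0 limma called 0 of 41 genes, with 1 at an unadjusted p under 0.05 (Cdc45) and 1.22% of all tested probe sets called, and the median ratio was 0.05.

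At 8 and 16 weeks no gene passed the test. DMM against sham at 8 weeks had a median ratio of 0.08, with 33 of 41 ratios above 0, 1 gene at an unadjusted p under 0.05 (E2f1, 0.21 ± 0.10, limma) and 0.00445% of all tested probe sets called. At 16 weeks the median was -0.09, with 38 of 41 ratios below 0 and 0 genes at an unadjusted p under 0.05. Of all tested probe sets 0.0623% were called. Over all tested probe sets the medians were 0.01 at 8 weeks and 0.00 at 16 weeks. The 41 genes moved almost as 1 block, so these counts of signs are not counts of separate results. Mki67 stood at 13.57, 13.43 and 13.38 in sham and at 13.65, 13.58 and 13.40 in DMM at 8 weeks, and at 13.76, 13.51 and 13.61 in sham and 13.34, 13.59 and 13.74 in DMM at 16 weeks. The groups overlapped at both times.

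The same was seen in most of the brightest genes. At 8 weeks Mcm7 stood at 13.11, 12.88 and 12.63 in sham and 13.24, 13.16 and 12.97 in DMM, Pcna at 13.61, 13.41 and 13.19 in sham and 13.65, 13.62 and 13.43 in DMM, and Rrm2 at 13.43, 13.25 and 13.13 in sham and 13.48, 13.39 and 13.17 in DMM. Sham pool 3 was the lowest pool in each. Among the mitosis genes at 8 weeks Ccna2 stood at 12.47, 12.35 and 12.31 in sham and 12.58, 12.54 and 12.33 in DMM, Birc5 at 12.14, 11.96 and 11.83 in sham and 12.19, 12.03 and 11.91 in DMM, and Cdc20 at 11.95, 11.91 and 11.94 in sham and 12.00, 11.94 and 11.89 in DMM. Cenpa stood at 11.71, 11.56 and 11.52 in sham and 11.68, 11.62 and 11.59 in DMM, and Nusap1 at 11.85, 11.79 and 11.71 in sham and 11.96, 11.87 and 11.71 in DMM. Sham and DMM overlapped in all 8 of these genes. Ccne2 stood at 11.09, 11.19 and 11.03 in sham and 10.96, 10.96 and 10.90 in DMM, with every DMM pool below every sham pool. It was the only 1 of 41 genes apart in that direction, beside 7.34% of all tested probe sets, so this is not read as an exception. Its ratio of -0.16 ± 0.15 did not pass (adjusted p = 0.654, limma).

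At 16 weeks Mcm7 stood at 13.25, 13.09 and 13.21 in sham and 12.93, 13.14 and 13.29 in DMM, Pcna at 13.80, 13.48 and 13.64 in sham and 13.46, 13.63 and 13.76 in DMM, and Rrm2 at 13.74, 13.36 and 13.46 in sham and 13.26, 13.49 and 13.51 in DMM. DMM pool 1 was the lowest pool in each. Ccna2 stood at 12.76, 12.44 and 12.56 in sham and 12.35, 12.42 and 12.65 in DMM, Birc5 at 12.33, 12.03 and 12.11 in sham and 11.95, 12.10 and 12.14 in DMM, and Cdc20 at 12.22, 11.98 and 12.08 in sham and 11.89, 12.00 and 12.02 in DMM. Cenpa stood at 11.77, 11.66 and 11.78 in sham and 11.50, 11.68 and 11.71 in DMM, Nusap1 at 12.05, 11.74 and 11.97 in sham and 11.59, 11.88 and 11.94 in DMM, and Ccne2 in DMM at 10.63, 11.21 and 10.98. The groups overlapped in each, with DMM pool 1 lowest of the 6 pools.

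Against time 0 limma called 0 of 41 genes in sham at 8 weeks (1 at an unadjusted p under 0.05, median 0.04, 0.939% of all tested probe sets called), DMM at 8 weeks (1, median 0.11, 0.743%) and DMM at 16 weeks (0, median 0.11, 1.73%). Sham at 16 weeks also had 0 called, with 4 at an unadjusted p under 0.05 and 5.8% of all tested probe sets called. Its median ratio was 0.21 (0.12 without time 0 pool 1), beside 0.03 over all tested probe sets, and 39 of 41 ratios were above 0. The sham pools lay above time 0 without overlap for 20 of 41 genes, beside 18.3% of all tested probe sets. The highest of these ratios was that of Ccne2, cyclin E2, at 0.40 ± 0.15 (adjusted p = 0.116), whose pools stood at 11.14, 11.17 and 11.28.

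Whether the DMM effect itself changed with time was tested as an interaction. The DMM over sham ratio was higher at 8 than at 4 weeks for all 41 genes, by a median of 0.44, but 0 of 41 passed (limma, 30 at an unadjusted p under 0.05, lowest adjusted p 0.0615), where 1.59% of all tested probe sets were called. The count was 15 without DMM pool 1 at 4 weeks and 11 without sham pool 1 at 8 weeks. From 2 to 8 weeks the median change was 0.41, with 0 called and 20 at an unadjusted p under 0.05. Of all tested probe sets 0.00445% were called. The median change was 0.25 without sham pool 1 at 2 weeks and 0.55 without sham pool 3 at 2 weeks, with 0 called in both fits. From 16 to 8 weeks it was 0.16 (0.09 without DMM pool 1 at 16 weeks), with 0 called, 2 at an unadjusted p under 0.05 and 0% of all tested probe sets called.

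**Figure D4:**
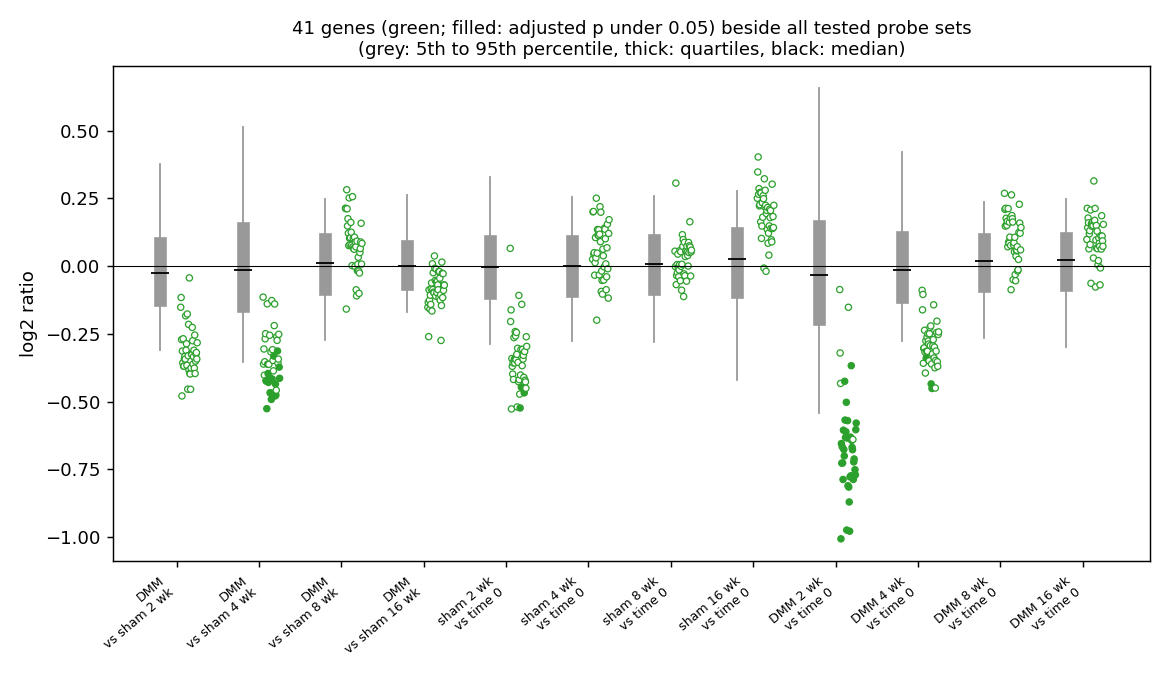
Log2 ratios of the 41 genes (green points, filled where the adjusted p was under 0.05) beside all 22482 tested probe sets (grey line from the 5th to the 95th percentile, thick bar for quartiles, black mark for the median) in 12 comparisons. The points lie around a median of -0.67 in DMM at 2 weeks against time 0 and -0.36 in DMM against sham at 4 weeks, while the grey medians lie near 0.

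Other genes of the pathway followed the same course. Of 42 further mitosis genes 37 fell in DMM at 2 weeks against time 0 and 13 fell in DMM against sham at 4 weeks, with medians of -0.67 and -0.31. Of 35 further replication genes, 35 and 13 fell, with medians of -0.58 and -0.31. Of all tested probe sets 15.2% and 6.68% fell in these 2 comparisons. At 4 weeks Stmn1, a microtubule destabilizer, fell by 0.37 (adjusted p = 0.00732) and Cdca3 by 0.46 (adjusted p = 0.0158) on the log2 scale, whereas Hmgb2 had a ratio of -0.08 and Cdc25b of -0.48 (adjusted p = 0.461 and 0.224). Among replication genes Gmnn, geminin, and Pold1, a catalytic subunit of DNA polymerase delta, both fell by 0.49 (adjusted p = 0.00446 and 0.0197), Dut, which clears dUTP, fell by 0.42 (adjusted p = 0.00497), and Slbp had a ratio of -0.33 (adjusted p = 0.0707).

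Regulators of G1 went in both directions. Of 6 G1 cyclins and kinases 1 fell at 4 weeks, Ccnd3 by 0.33 (adjusted p = 0.0243), and Ccnd2 had a ratio of 0.34 (adjusted p = 0.0572). At 2 weeks against time 0, Ccnd2 rose by 0.87 (adjusted p = 0.000137) while Ccnd3 fell by 0.67 (adjusted p = 0.000207). Of 12 cell cycle inhibitors above the filter, 2 rose and 2 fell at 4 weeks. Of all 22482 tested probe sets 4282 were called at 4 weeks, and 1501 of these fell. The counts for these 2 short lists are therefore not read as a result about the lists. The pair that rose were Cdkn1a (p21), by 0.74 ± 0.23 (adjusted p = 0.0291), and Cdkn1c (p57), by 0.55 ± 0.16 (adjusted p = 0.0233), and the pair that fell were Cdkn2c (p18), by 0.39, and Cdkn2d (p19), by 0.33 (adjusted p = 0.0297 and 0.0383). Btg1, the brightest of the list, had a ratio of -0.05 (adjusted p = 0.677).

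Marrow markers were read pool by pool beside the genes, since the tissue held subchondral bone. Alas2 marks hemoglobin-making erythroid cells and Mpo, myeloperoxidase, marks granulocyte precursors. In bulk tissue fewer cells of a type and less RNA per cell cannot be told apart. At time 0 the mean of the 41 genes stood at 10.78, 11.04 and 11.02 in pools 1 to 3, and Alas2 at 12.28, 12.69 and 12.92, with pool 1 lowest in both. At 2 weeks the gene mean stood at 10.90, 10.60 and 10.32 in sham and at 10.33 and 10.26 in DMM, and Alas2 at 12.95, 12.43 and 11.14 in sham and 12.06 and 11.93 in DMM. The sham pools kept the same order in both, but sham pool 3 lay far below the DMM pools in Alas2 and beside them in the gene mean.

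At 4 weeks the gene mean stood at 10.93, 11.06 and 11.03 in sham and at 10.83, 10.53 and 10.61 in DMM, and Alas2 at 12.88, 13.22 and 13.20 in sham and 12.85, 11.89 and 12.59 in DMM. Again DMM pool 1 lay close to the sham pools and pool 2 lay lowest in both measures. Alas2 had a ratio of -0.65 ± 0.35 (adjusted p = 0.189) and did not pass, and of the 9 erythroid markers 0 were called by limma, with 4 at an unadjusted p under 0.05, all 9 ratios below 0 and a median of -0.59. At 2 weeks in DMM against time 0, 7 of 9 erythroid markers fell, where 15.2% of all tested probe sets fell. The median over the 9 markers was -0.86. Among those that fell were Rhd, by 1.10, and Hemgn, by 0.76 (adjusted p = 0.0166 and 0.0169, limma), and Alas2 had a ratio of -0.63 (adjusted p = 0.238).

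Mpo followed the genes less closely. It stood at 13.84, 13.83 and 13.66 at time 0, at 13.81, 13.59 and 13.84 in sham and 13.33 and 13.50 in DMM at 2 weeks, and at 14.06, 14.06 and 14.01 in sham and 13.73, 13.80 and 13.43 in DMM at 4 weeks. DMM lay below sham at both times, and Mpo fell at 4 weeks by 0.39 ± 0.13 (adjusted p = 0.0453). Sham pool 3 at 2 weeks, low in the gene mean, was not low in Mpo, and DMM pool 2 at 4 weeks, the lowest in the gene mean, was the highest DMM pool in Mpo. The other 4 granulocyte precursor markers did not pass at 4 weeks.

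**Figure D5:**
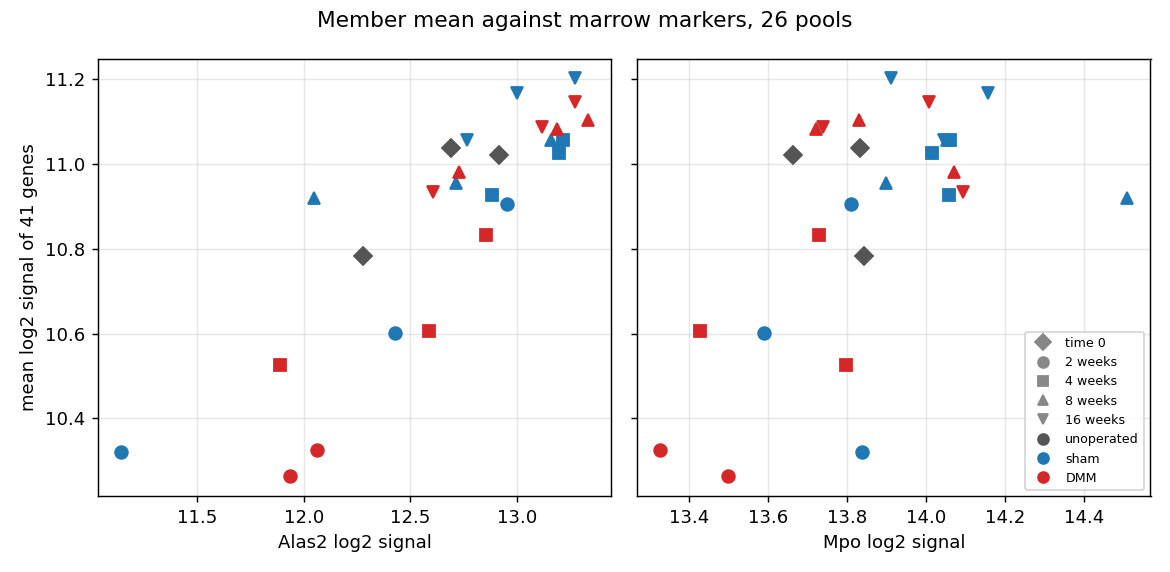
Mean log2 signal of the 41 genes (y axis) against the log2 signal of Alas2 (left) and Mpo (right) in 26 pools, coloured by surgery and shaped by week. Pools line up along Alas2, with r = 0.857, and less along Mpo, with r = 0.581.

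Over the 26 pools the gene mean was correlated with Alas2 at Pearson's r = 0.857 and Spearman's rho = 0.864, and at r = 0.813 without the 2 pools farthest from the Alas2 median. With Mpo r was 0.581, rho 0.433 and r without the 2 farthest pools 0.582. Once each pool was taken as its deviation from its own group mean, r was 0.911 with Alas2 and -0.214 with Mpo, so the link with Alas2 was also seen between pools of the same surgery and week, and that with Mpo was not. The mean of the 9 erythroid markers had r = 0.938 with the gene mean, and r = 0.928 as deviations. All of these values share arrays and normalization and are descriptions.

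By gene, r with Alas2 ran from 0.343 (Foxm1, just above the brightness filter) to 0.939 (Ccne1), with a median of 0.84. Over all tested probe sets the median was 0.0329, and 5.11% of them reached 0.84. With Mpo the median over the genes was 0.557, beside 0.117 over all tested probe sets, of which 13.3% reached 0.557. Megakaryocyte markers also varied with the genes from pool to pool (r = 0.904, and 0.743 as deviations). In DMM against sham at 4 weeks 5 of 5 fell, with Gp9 at -0.53 and Gp1bb at -0.49, where 6.68% of all tested probe sets fell. B cell precursor markers had r = 0.536, and 0.682 as deviations. Mature neutrophil markers had r = 0.196, which was 0.541 without the 2 farthest pools and -0.411 as deviations, so no direction is read from it.

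Joint markers ran the other way. The mean of 6 synovial fibroblast markers had r = -0.902 with the gene mean, and -0.833 as deviations. At 4 weeks 5 of these 6 rose in DMM over sham, with a median of 0.97. Of all 22482 tested probe sets 4282 were called there, and 1501 of these fell while the rest rose. The rise was led by Postn (1.34 ± 0.29, adjusted p = 0.00394, limma) and Lum (1.18 ± 0.20, adjusted p = 0.00118), while Prg4 had a ratio of 0.27 (adjusted p = 0.231). At 2 weeks against time 0 all 6 rose in DMM, with a median of 1.45. In that comparison 6646 of all tested probe sets were called, and 3425 of these fell while the rest rose. Chondrocyte and osteoblast markers had r = -0.712 and -0.713, and -0.476 and -0.587 as deviations. Skeletal muscle markers, whose mean ran from 9.65 to 13.34 over the pools, had r = 0.368, which was 0.16 without the 2 farthest pools and 0.654 as deviations. Both ends of that range were sham pools at 2 weeks, pool 3 the lowest, so no direction is read from these values.

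The fits were repeated with marker signals as covariates. With the mean of the erythroid and granulocyte precursor markers as a covariate, 0 of 41 genes were called in DMM against sham at 4 weeks (limma, 4 at an unadjusted p under 0.05), and the median ratio was -0.02 in place of -0.36. Calls over all tested probe sets went from 4282 to 289 in the same fit. In DMM at 2 weeks against time 0 the median was -0.12 in place of -0.67 and 7 genes were called. Of these Cdc45, Aurkb, Bub1, Kif11, Gins1 and Ttk were lower in DMM and Ccne1 was higher, and calls over all tested probe sets went from 6646 to 1895. With Alas2 alone as the covariate, chosen after seeing the data, 10 genes were called at 4 weeks with a median of -0.16, and 36 at 2 weeks against time 0 with a median of -0.52. With Mpo alone the counts were 18 and 37, with medians of -0.43 and -0.73. These markers differ between the groups themselves, so each such fit takes away part of any group difference that moves with them, and the part that marrow content plays in the gene signals was not tested by another measurement.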

How the data were processed

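RNA from 26 pools of 3 mice each was hybridised to Affymetrix whole-genome mouse arrays. The deposited values are log2 signal intensities per probe set, which the authors normalized between arrays by systematic variation normalization. That scaling is relative, so a ratio is read against the bulk of the probe sets. Probe sets were named from GEO's platform annotation: 34958 had 1 symbol, 932 several and 9211 none, and only the first were used for genes. A probe set was tested if its mean over the 26 arrays exceeded 7.93, the median of the array medians.

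All 26 arrays were fitted together with limma 3.58.1 (lmFit, eBayes, R 4.3.3), with 9 group means and 17 residual degrees of freedom, and p-values were adjusted by Benjamini-Hochberg over 22482 probe sets at 0.05. The fit was tested on simulated data. Exact permutation tests of single values could not go below p = 0.1 for 3 pools against 3, or 0.2 for 2 against 3, and none is given. The number of arrays limits the precision.

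The members, role classes, marker lists and tests were chosen with earlier results of these data known, and the list says nothing independent about its own direction. All 42 genes could be named. Pool values are printed for the 4 called genes with the largest ratios in each comparison with sham or of sham with time 0, and for the brightest gene of each role class. Of other lists the 2 brightest genes and the 2 with the largest ratios could be named, besides Alas2 and Mpo. Cdkn2c was named beyond that rule, after its values were seen. Pool values of Cdc6 were likewise printed beyond the rule, as the gene with the lowest ratio in DMM at 2 weeks against time 0. Matplotlib drew the plots. Alternatives were the brightness filter, the samples fitted, array weights, a replicate block, quantile normalization, the mean of all probe sets of a gene, marker covariates and leaving out each pool.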

Additional observations from a re-analysis of the deposited data

How the results depend on the processing

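Counts are of the 41 genes called. Leaving out each pool in turn gave 0 to 27 genes in DMM against sham at 2 weeks (27 without sham pool 3) and 1 to 28 at 4 weeks (1 without DMM pool 2, 28 without DMM pool 1). It gave 0 to 32 in sham at 2 weeks against time 0 (32 without sham pool 1), 29 to 38 in DMM at 2 weeks and 0 to 17 in DMM at 4 weeks against time 0 (17 without DMM pool 1), and 0 to 15 for the change from 4 to 8 weeks (15 without DMM pool 1 at 4 weeks). Where it left 1 DMM pool at 2 weeks, that pool was assumed to vary like the other groups. The other 9 comparisons stayed at 0.

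In DMM against sham the count at 2 weeks was 15 with the muscle marker mean and 24 with Alas2 as a covariate, against 0. At 4 weeks it was 4 with only the groups compared fitted, 38 with array weights, 0 with the marrow marker mean, 9 with the muscle marker mean and 10 with Alas2, against 17. At 8 weeks array weights gave 1. In sham at 2 weeks against time 0 the count was 0 with no brightness filter, only the groups compared, array weights or the marrow mean, 2 with probe sets averaged and 29 with the muscle mean, against 4. In sham against time 0 the marrow mean gave 1 at 4 weeks, array weights gave 2 at 8 weeks and 5 at 16 weeks, and at 16 weeks only the groups compared and Mpo each gave 1. In DMM against time 0 the marrow mean gave 7 at 2 weeks. At 4 weeks the count was 2 with no filter, with probe sets averaged or with Mpo, 0 with only the groups compared or the marrow mean, 38 with array weights, 21 with the muscle mean and 27 with Alas2, against 4. At 8 weeks array weights gave 1. For the change to 8 weeks, the muscle mean gave 18 from 2 weeks and 28 from 4 weeks, array weights gave 37 from 4 weeks and 2 from 16 weeks, and Mpo gave 3 from 4 weeks. The weights' estimation stopped before it converged. The cause of these moves was not tested, and the Alas2 and Mpo covariates were chosen after seeing the data.

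Median ratios moved too. The marrow mean gave -0.06, -0.02, 0.04 and 0.00 in DMM against sham at 2, 4, 8 and 16 weeks, -0.04, -0.05, -0.07 and -0.06 in sham against time 0, -0.12, -0.07, -0.03 and -0.06 for DMM set against time 0, each in the same order, and 0.13, 0.06 and 0.03 for the change from 2, 4 and 16 weeks to 8. Alas2 gave -0.16 and -0.04 in DMM against sham at 4 and 8 weeks, -0.05 and 0.10 in sham at 4 and 16 weeks, and -0.52, -0.02 and 0.01 for DMM set against time 0 at 2, 8 and 16 weeks. It gave 0.23, 0.13 and 0.02 for the change from 2, 4 and 16 weeks. The muscle mean gave 0.22 and -0.17 in DMM against sham at 8 and 16 weeks, -0.07, -0.15 and 0.12 in sham at 4, 8 and 16 weeks, and 0.07 and -0.05 for DMM set against time 0 at 8 and 16 weeks. It gave 0.36 for the change from 16 weeks. Mpo gave 0.03 in DMM against sham at 8 weeks, and 0.13 and 0.10 in sham at 4 and 8 weeks.

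Without covariates, leaving out 1 pool moved the median by over 1.5 times in DMM against sham at 2 weeks (-0.17 without sham pool 1), sham at 2 weeks against time 0 (-0.20 without sham pool 3) and the changes from 2 weeks (0.25 without sham pool 1) and from 16 weeks (0.09 without DMM pool 1). Medians near 0 ran over 0.05 to 0.13 and -0.13 to -0.02 in DMM against sham at 8 and 16 weeks. They ran over -0.04 to 0.11, -0.04 to 0.07 and 0.12 to 0.26 in sham at 4, 8 and 16 weeks, and 0.04 to 0.17 and 0.03 to 0.17 in DMM at 8 and 16 weeks against time 0. In sham at 8 weeks it was also -0.04 with array weights, -0.02 with quantile normalization and 0.02 with probe sets averaged. In sham at 4 weeks these gave 0.02, 0.00 and 0.04. Quantile normalization gave 0.12 in DMM against sham at 8 weeks.

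Quantile normalization moved none of these counts by over 1.5 times. A replicate block gave 19 genes in DMM against sham at 4 weeks, against 17. Against time 0 it gave 5 in sham at 2 weeks, 37 in DMM at 2 weeks and 5 in DMM at 4 weeks, against 4, 36 and 4. The comparisons with 0 called kept 0. The study paired pools at random, so the numbers were not taken to pair the samples. Deviations of same-numbered pools from their group means correlated at -0.42 to 0.726 (median 0.0784). Those of differently numbered pools correlated at -0.612 to 0.548 (median -0.0536), somewhat lower but over much of the same range. Tyms and Foxm1 lay just above the brightness filter, at 7.97 and 7.98, and fell below it with probe sets averaged.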
